A study of Mus musculus with 12 samples.

Results

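The genes described here are 9 enzymes of the methionine and folate cycles, Mtr, Mtrr, Mat2a, Mat2b, Ahcy, Shmt1, Shmt2, Mthfd1 and Mthfd2, out of 54532 genes in the count table. They were chosen by name, as the genes of one-carbon metabolism that supply methyl groups, and the choice was made with expression results of all 4 groups already known. Their own fold changes and adjusted p-values are therefore given as a description of these libraries, and support nothing beyond it. All 9 were found in the table, and all 9 passed the filter on low counts in every comparison, with between 334 and 14397 counts in a library.

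The study asked what an excess of glucocorticoid does to the germ cells of the perinatal testis, and measured poly(A) RNA in 12 libraries from male mice of the Tg(Pou5f1-EGFP)2Mnn line. In that line a Pou5f1 promoter drives green fluorescent protein (GFP) in germ cells, and every group carried it. Dams received 10 μg/g of dexamethasone (dex), a synthetic agonist of the glucocorticoid receptor, or saline at E17.5 and E18.5 of gestation. The pups received the same agent at postnatal day 0, and testes were taken at postnatal day 1 and sorted into GFP+ germ cells and GFP- somatic cells (soma). The 4 groups, saline germ, dex germ, saline soma and dex soma, held 3 libraries each, and each replicate pooled the testes of at least 2 whole litters, so no value belongs to a single animal. The soma libraries hold every GFP- cell type of the testis together, and in such bulk RNA fewer cells of a type and less RNA per cell cannot be told apart.

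The sort matched its labels. The 8 germ cell markers summed to 2553 to 2809 CPM (counts relative to library size, scaled by TMM factors) in germ libraries and to 7.96 to 9.18 CPM in soma libraries, with Nanos2 at 0 counts in all saline soma libraries. The 8 Sertoli cell markers summed to 3945 to 4642 CPM in soma libraries, to 47.9 to 59.2 CPM in saline germ libraries and to 29.1 to 39.4 CPM in dex germ libraries. Library totals lay between 18459692 and 25178477 counts, and replicates of a group correlated across genes at r of 0.994 to 0.996 on the log2 CPM scale.

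One-carbon metabolism moves single carbon units from serine and glycine onto folate and from there into thymidylate, purines and methionine. Methionine synthase joins the folate cycle to the methionine cycle, in which methionine is activated to S-adenosylmethionine (SAM), spent by methyltransferases, returned to homocysteine and methylated again. The folate steps run in parallel in cytosol and mitochondria, with separate enzymes in each compartment. In male germ cells SAM feeds, among other reactions, the DNA methylation that prospermatogonia re-establish around birth.

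The enzymes lie on 6 chromosomes of mm10 (GRCm38), the build of the count table. Mtr spans chr13:12182712-12258113 on the minus strand with 33 exonic blocks, and Mtrr lies on the same strand of the same chromosome at chr13:68560780-68582149. RefSeq (GRCm38.p6) gave promoter sequence for all 9 genes. The 250 bases before the transcription start of Mtr, of its partner Mtrr and of Shmt2 are shown. Mtr was the member that passed the test for dex, and Mtrr encodes the enzyme that keeps its product active. Shmt2 was the member with the highest level per length in germ cells, with each gene taken by its own counts. Capitals mark the CCAAT box on either strand (CCAAT or ATTGG) and the hexamer AGAACA, which is one arm of the glucocorticoid response element.
Mtr, chr13:12258114-12258363, minus strand: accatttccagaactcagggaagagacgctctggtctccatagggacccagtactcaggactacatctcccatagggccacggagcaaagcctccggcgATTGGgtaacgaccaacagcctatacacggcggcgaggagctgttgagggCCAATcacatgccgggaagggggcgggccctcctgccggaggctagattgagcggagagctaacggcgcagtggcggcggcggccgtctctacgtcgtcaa
Mtrr, chr13:68582170-68582419, minus strand, the more upstream of its 2 RefSeq starts: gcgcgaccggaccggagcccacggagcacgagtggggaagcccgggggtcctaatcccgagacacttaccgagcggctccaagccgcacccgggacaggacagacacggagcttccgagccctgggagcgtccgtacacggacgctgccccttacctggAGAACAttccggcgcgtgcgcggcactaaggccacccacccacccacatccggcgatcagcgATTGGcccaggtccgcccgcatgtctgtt
Shmt2, chr10:127522445-127522694, minus strand: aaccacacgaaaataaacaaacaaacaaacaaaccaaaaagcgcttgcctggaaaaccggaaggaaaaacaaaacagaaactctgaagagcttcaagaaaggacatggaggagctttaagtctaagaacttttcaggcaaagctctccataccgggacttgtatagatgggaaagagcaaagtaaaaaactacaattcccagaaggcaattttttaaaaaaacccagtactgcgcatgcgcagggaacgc

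The Mtr sequence holds 2 CCAAT boxes, 151 and 101 bases before the start on opposite strands, and 1 GC box (GGGCGG) 81 bases before it. The Mtrr sequence holds AGAACA 91 bases before the start, 1 CCAAT box at 29 bases and 1 GC box at 17 bases. The start used for it lies outside the span of Mtrr given above. Before the other RefSeq start, which lies inside that span, the same motifs are at 156, 94 and 82 bases. No motif searched was found in the Shmt2 sequence, which had a GC content of 40.8%, against 62.0% for Mtr and 68.4% for Mtrr. Among 32851 RefSeq promoters of the same length, 33.8% held CCAAT, 32.7% held GGGCGG and 16.1% held AGAACA on either strand. The full element, AGAACA and TGTTCT with any 3 bases between them, which contains AGAACA, was in 0.00913% of promoters and in none of the 9 genes' windows. Of the other motifs, CACGTG was in 6.02%, TGACGTCA in 1.55% and TGATGCAA in 0.791% of promoters, and none was in the windows of the 9 genes. These matches describe letters only.

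The expression of Mtr, which encodes the cobalamin-dependent methionine synthase, was higher in dex germ cells than in saline germ cells and stood far above its level in soma. It reached 368, 386 and 356 CPM in saline germ libraries 1 to 3 and 587, 532 and 597 CPM in dex germ libraries. In soma it was at 102, 108 and 100 CPM with saline and at 80.6, 76.4 and 92.9 CPM with dex. All dex germ libraries were above all saline germ libraries, and all dex soma libraries were below all saline soma libraries. The difference between dex and saline was 0.62 ± 0.069 on the log2 scale (SE, n = 3 against 3) in germ cells, a 1.54-fold higher level with an adjusted p of 0.00057 in edgeR's quasi-likelihood test over 18550 genes, where it was number 7 by p-value. In soma it was -0.28 ± 0.092, with an adjusted p of 0.114 in edgeR. The dex effect in germ cells exceeded that in soma by 0.94 ± 0.12 (log2), with an adjusted p of 0.000898 for the interaction in edgeR over 20551 genes. Both calls of Mtr remained in each alternative fit and with any 1 library left out, where its log2 change in germ cells without 1 library ranged from 0.59 to 0.67 and the interaction from 0.89 to 1.03.

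In edgeR's test Mtr was the only member called in the dex comparisons. In germ cells edgeR called 1 of 9 members higher and 0 lower, where 0.739% of all genes tested were called higher and 0.507% lower. DESeq2 also called Ahcy and Mthfd1 lower in germ cells, both at an adjusted p of 0.0267. In soma 0 of 9 were called, with 2 at an unadjusted p under 0.05 in edgeR and 0 called by DESeq2, whose smallest adjusted p was 0.0756 (Mtr), where 2.74% of genes were called higher and 1.17% lower. In the interaction 1 of 9 was called, against 0.827% of all genes in either direction. These 3 comparisons use the same libraries in part, since each dex effect enters the interaction, so their counts are not separate evidence. Sertoli marker sums did not overlap between dex germ and saline germ libraries and were lower in dex, as given above. The 6 Leydig cell markers (8.86 to 11.6 CPM with saline and 4.70 to 8.62 CPM with dex) and the 6 erythroid markers (7.52 to 9.06 and 4.33 to 6.88 CPM) were likewise apart in germ libraries. Sums of peritubular and stromal (104 to 127 and 114 to 119 CPM) and endothelial markers (56.0 to 63.3 and 55.3 to 68.7 CPM) overlapped there. Macrophage markers overlapped as well (3.72 to 7.05 and 4.37 to 4.79 CPM). The part of these markers in the result was not tested.

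Mtrr encodes methionine synthase reductase, which restores methionine synthase when its cobalamin is oxidised. It was at 38.0, 39.3 and 35.0 CPM in saline germ and at 40.1, 34.5 and 29.8 CPM in dex germ libraries, which overlapped. In soma it was at 16.9, 24.1 and 24.8 CPM with saline and at 20.8, 22.8 and 18.4979 CPM with dex, again with overlap. The dex difference was -0.11 ± 0.12 in germ cells and -0.06 ± 0.16 in soma on the log2 scale, with adjusted p of 0.722 and 0.909 in edgeR. Per length, Mtr stood above Mtrr in each library. The ratio of their FPKM (fragments scaled by gene length and library depth, the authors' values) was 5.90, 5.99 and 6.19 in saline germ libraries and 8.94, 9.41 and 12.2 in dex germ libraries, with no overlap. In soma the ratio was 2.96 ± 0.64 with saline and 2.49 ± 0.52 with dex (SD, n = 3), and the libraries overlapped.

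**Figure D1:**
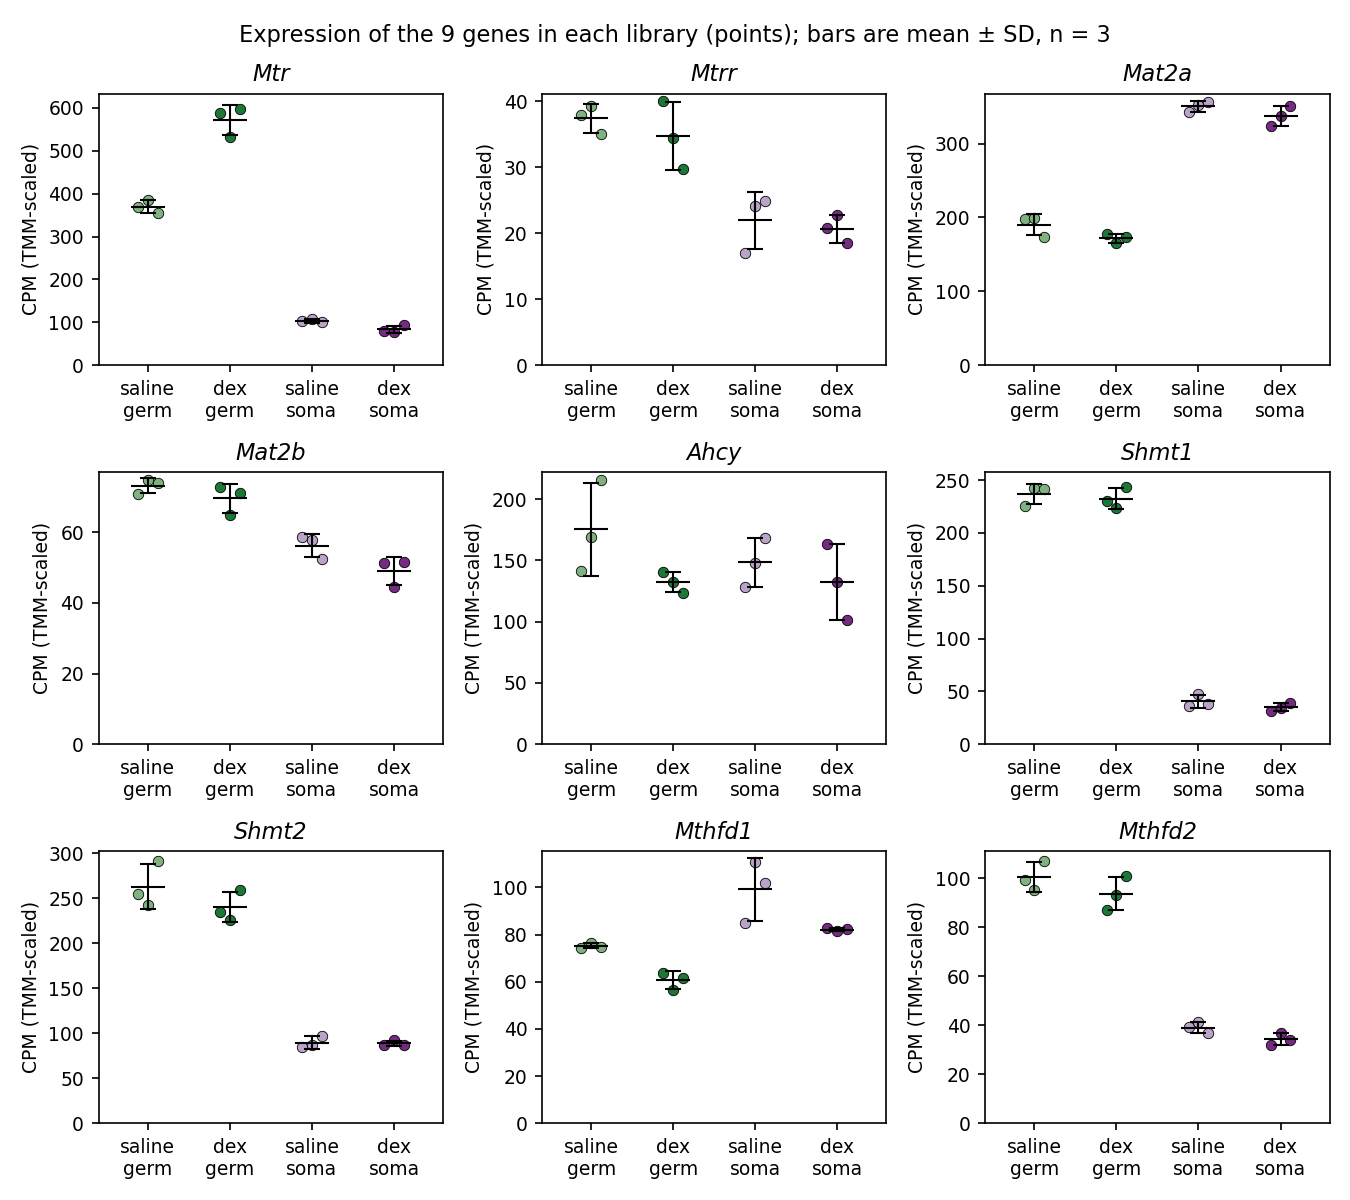
CPM (TMM-scaled) of each of the 9 genes, with 1 point per library in the order of replicates 1 to 3, and the mean ± SD of the 3 libraries of each group. Mtr is the gene whose dex germ libraries (532 to 597 CPM) lie well above its saline germ libraries (356 to 386 CPM). The remaining genes differ between germ and soma, except Ahcy, whose germ and soma libraries overlap.

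Germ cells and soma differed in 8 of the 9 genes in saline and in 8 of 9 with dex. In each case 6 were called higher in germ cells and 2 lower, where 39.8% of all genes tested were called higher and 36.7% lower in saline, and 40.5% and 35.7% with dex. Most genes thus separate these populations, and a count of 8 in 9 says little about these enzymes. The sizes differed widely between the genes. The median over the 9 was 0.77 in saline, against 0.072 over all genes tested, on the log2 scale of germ over soma.

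Shmt1 and Shmt2 interconvert serine and glycine and charge folate with a carbon unit, Shmt1 in the cytosol and nucleus and Shmt2 in mitochondria. Shmt1 was at 226, 243 and 242 CPM in saline germ libraries and at 36.0, 47.1 and 38.3 CPM in saline soma libraries, a 5.84-fold difference and the widest of the 9 in saline. With dex it was at 231, 224 and 244 CPM in germ libraries and at 31.5, 34.5 and 38.7 CPM in soma libraries. The log2 difference of germ over soma was 2.55 ± 0.10 with saline and 2.73 ± 0.095 with dex. Its exons overlap those of Smcr8 on the opposite strand over 4.74% of their length, Smcr8 had 29.8% of the counts of Shmt1, and the strand setting of the counting is not given in the sources used here.

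Shmt2 was 2.93-fold higher in germ cells than in soma with saline (log2 1.55 ± 0.093). Its CPM values were 255, 243 and 291 in saline germ libraries and 235, 226 and 259 in dex germ libraries. In soma they were 84.2, 87.1 and 97.3 with saline and 86.9, 92.1 and 86.6 with dex. Germ and soma libraries did not overlap, while dex and saline libraries did in both populations. The ratio of Shmt2 to Shmt1 by FPKM was 1.39 ± 0.13 in saline germ cells, 1.29 ± 0.033 in dex germ cells, 2.80 ± 0.44 in saline soma and 3.19 ± 0.35 in dex soma (SD, n = 3). Both populations thus held more of the mitochondrial transcript per length, and soma held the larger excess.

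Mthfd1 and Mthfd2 oxidise and interconvert the folate carbon unit, Mthfd1 in the cytosol and Mthfd2 in mitochondria, and they went in opposite directions between the populations. Mthfd2 was at 99.3, 95.2 and 107 CPM in saline germ and at 39.1, 41.2 and 36.7 CPM in saline soma libraries, a log2 difference of 1.36 ± 0.094. With dex it was at 87.1, 93.1 and 101 CPM in germ and at 32.1, 36.9 and 33.9 CPM in soma libraries. Mthfd1 was lower in germ cells, by -0.40 ± 0.10 (log2) with saline and -0.44 ± 0.089 with dex. The ratio of Mthfd2 to Mthfd1 by FPKM was 1.70 ± 0.12 in saline germ cells and 0.507 ± 0.070 in saline soma, with libraries far apart, and 1.97 ± 0.20 and 0.532 ± 0.043 with dex.

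Mthfd1 had lower values with dex in both populations without passing the test in either. It was at 74.2, 76.4 and 75.0 CPM in saline germ and at 63.8, 56.4 and 61.7 CPM in dex germ libraries, and at 84.8, 111 and 102 CPM in saline soma and 82.8, 81.4 and 82.2 CPM in dex soma libraries. Dex libraries lay below saline libraries in both populations. Such a separation of 3 libraries from 3, in either direction, was found for 20.0% of the genes tested in germ cells and 21.3% in soma. The log2 difference was -0.32 ± 0.087 in germ cells and -0.24 ± 0.095 in soma, with adjusted p of 0.0901 and 0.21 in edgeR, and DESeq2 gave 0.0267 in germ cells. Of the 9 genes, 3 had dex and saline libraries apart in germ cells (Mtr above, Ahcy and Mthfd1 below) and 3 in soma (Mtr, Mat2b and Mthfd1, all below).

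Mat2a encodes the catalytic subunit of the methionine adenosyltransferase that makes SAM outside the liver, and Mat2b its regulatory subunit. Mat2a was lower in germ cells, at 198, 200 and 174 CPM with saline and 177, 166 and 173 CPM with dex, than in soma, at 342, 353 and 357 CPM with saline and 323, 338 and 351 CPM with dex. The log2 difference of germ over soma was -0.88 ± 0.080 with saline and -0.98 ± 0.075 with dex. Mat2b was higher in germ cells, at 70.7, 74.9 and 74.1 CPM against 58.6, 57.8 and 52.5 CPM in soma with saline, a log2 difference of 0.38 ± 0.091. With dex it was at 72.8, 65.0 and 71.1 CPM in germ and 51.4, 44.6 and 51.5 CPM in soma libraries. The ratio of Mat2a to Mat2b by FPKM was 2.90 ± 0.26 in saline germ cells and 6.97 ± 0.55 in saline soma (SD, n = 3), and 2.75 ± 0.075 and 7.69 ± 0.72 with dex. Particl, on the opposite strand, overlaps 11.3% of the exonic length of Mat2a, and had 1.24% of its counts.

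Ahcy encodes adenosylhomocysteinase, which removes the product of SAM-dependent methylation. It spread widely between libraries of a group, with 141, 169 and 216 CPM in saline germ, 140, 132 and 124 CPM in dex germ, 128, 148 and 169 CPM in saline soma and 163, 133 and 101 CPM in dex soma libraries. Germ and soma libraries overlapped, with a log2 difference of 0.24 ± 0.14 and an adjusted p of 0.143 in edgeR with saline. The dex difference in germ cells was -0.42 ± 0.12, with an adjusted p of 0.101 in edgeR and 0.0267 in DESeq2, and the libraries did not overlap. These values are uncertain because 66.9% of the 64-base words of the Ahcy exons also occur in Gm4737, Gm5638 or Gm9826, and Gm4737 alone had 45.7% of the counts of Ahcy.

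With these genes summed, a choice made after the values of Ahcy had been seen, the total was 244, 259 and 263 CPM in saline germ, 217, 198 and 237 CPM in dex germ, 188, 201 and 206 CPM in saline soma and 227, 183 and 186 CPM in dex soma libraries. Saline germ cells then stood above saline soma by 0.36 ± 0.074 (log2), with an adjusted p of 0.000772 in edgeR, whereas Ahcy alone was not called in that test but was in DESeq2 (0.0314), with library totals (0.0315) and without the filter (0.0117). The dex difference in germ cells was then -0.24 ± 0.076, with an adjusted p of 0.146 in edgeR. Of the other members, 11.7% of the words of Mat2a, 2.99% of Shmt1 and 0.568% of Shmt2 were shared with another gene, and none of the words of Mtr, Mtrr, Mat2b, Mthfd1 or Mthfd2.

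**Figure D2:**
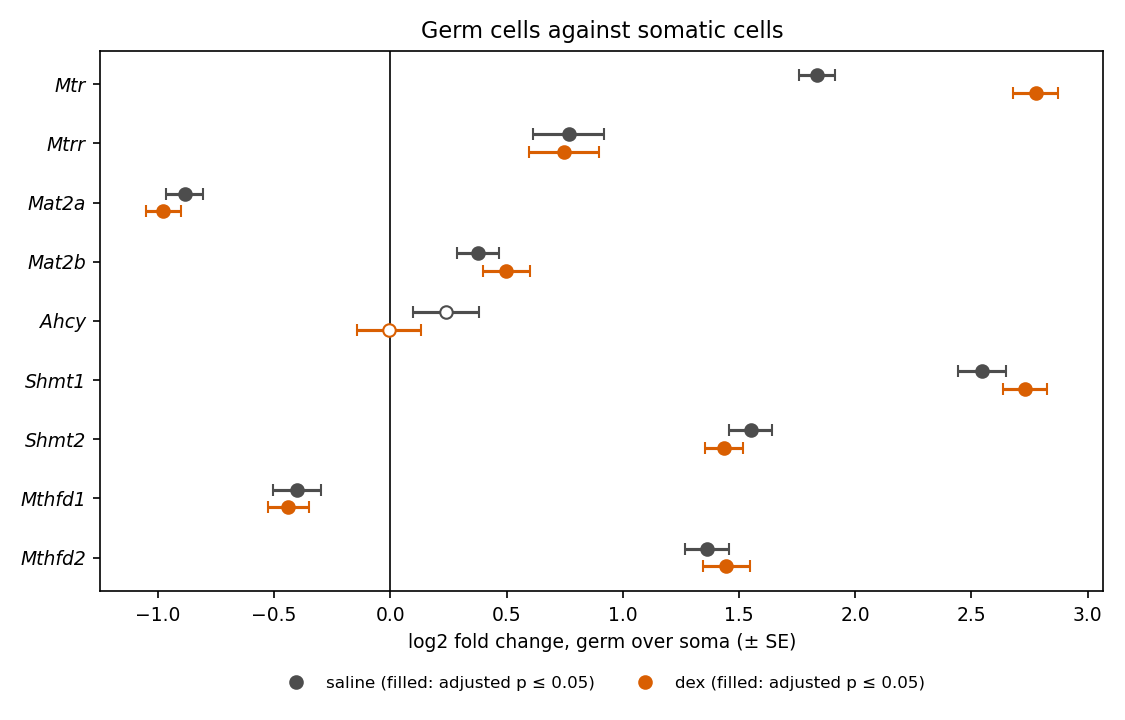
log2 fold change of germ over soma (± SE, 3 libraries against 3) for the 9 genes in saline and with dex, with filled points where the adjusted p of edgeR was at or under 0.05. Shmt1, Shmt2, Mthfd2, Mtr, Mtrr and Mat2b lie to the right of 0, Mat2a and Mthfd1 lie to the left, and the 2 settings are close except for Mtr (1.83 with saline and 2.78 with dex).

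The order of the 9 genes by level per length differed between the populations. Ahcy was placed by its own counts, without those of the genes that share its sequence. Its own counts were 57.8%, 65.2% and 82.2% of that sum in saline germ libraries 1 to 3. In dex germ libraries they were 64.7%, 66.9% and 52.2%. The rank of Ahcy, and with it the first place of Shmt2 in germ cells, could change with that sum. In saline germ cells Shmt2 stood first at 86.2 ± 8.9 FPKM, followed by Ahcy (63.8 ± 14), Shmt1 (62.1 ± 2.9), Mtr (44.2 ± 1.7), Mat2a (43.2 ± 3.0), Mthfd2 (29.4 ± 1.9), Mthfd1 (17.2 ± 0.30), Mat2b (14.9 ± 0.53) and Mtrr (7.34 ± 0.39). Ahcy and Shmt1 overlapped, as did Mtr and Mat2a, and every other pair of neighbours was apart in all libraries. With dex Mtr moved to the second place at 69.2 ± 4.2 FPKM, between Shmt2 (79.6 ± 5.7) and Shmt1 (61.8 ± 2.8), and it overlapped Shmt1 but not Shmt2.

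In saline soma Mat2a stood first at 73.3 ± 2.3 FPKM, ahead of Ahcy (49.6 ± 7.1), Shmt2 (27.01 ± 2.46) and Mthfd1 (20.9 ± 2.4), each apart from the next. Mtr (11.4 ± 0.16) and Mat2b (10.5 ± 0.56) did not overlap, whereas Mat2b overlapped Mthfd2 (10.5 ± 0.37), and Mthfd2 overlapped Shmt1 (9.74 ± 1.1). Mtrr was lowest at 3.96 ± 0.76 FPKM. With dex the same 4 genes led in soma, Mtr was at 9.37 ± 0.95 FPKM and overlapped both Mat2b and Shmt1, and Mtrr was again lowest at 3.81 ± 0.42.

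**Figure D3:**
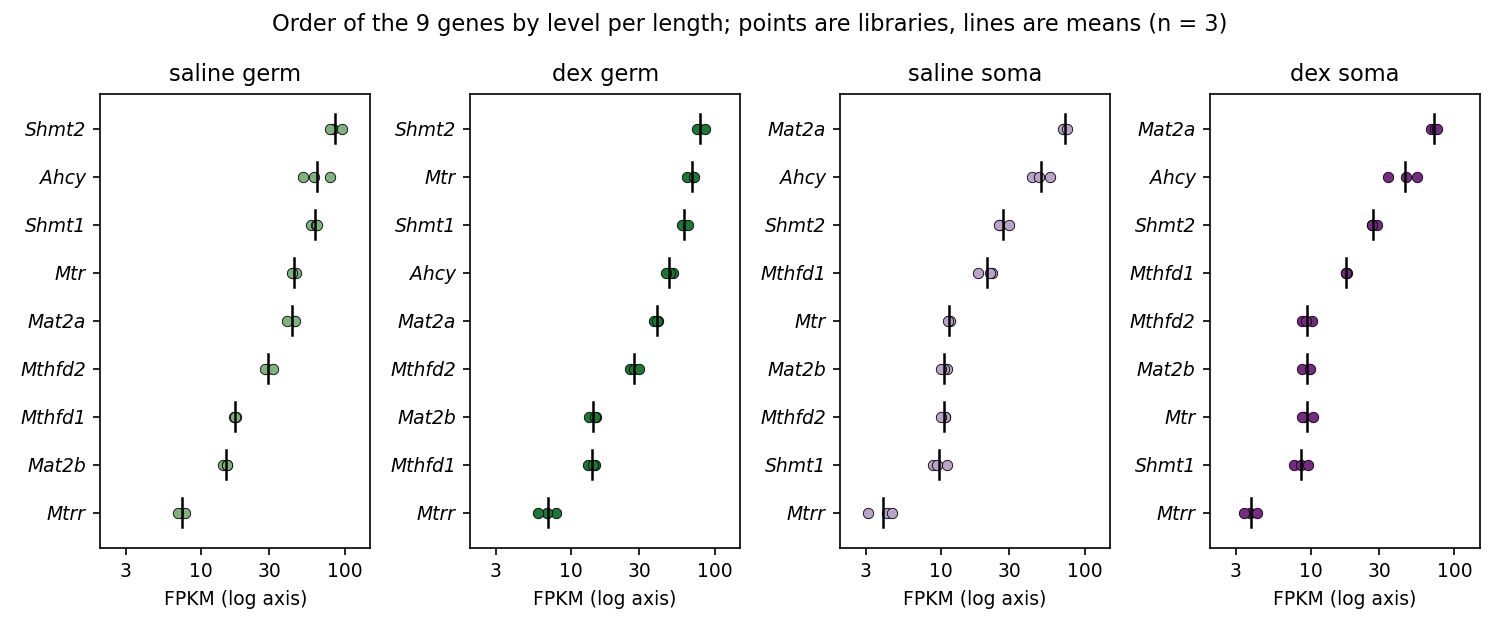
FPKM on a log axis for the 9 genes in each group, ordered by the mean of 3 libraries (vertical line), with 1 point per library. Shmt2 leads in both germ groups and Mat2a in both soma groups, Mtrr is last in all 4, and Mtr is at rank 4 in saline germ cells (44.2 FPKM) and at rank 2 in dex germ cells (69.2 FPKM). Ahcy is placed by its own counts, without the genes that share its sequence, so ranks near it in germ cells could change.

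Apart from Mtr, the widest dex differences in germ cells were those of Ahcy (-0.42) and Mthfd1 (-0.32), described above. The log2 differences of Mtrr, Mat2a, Mat2b, Shmt1, Shmt2 and Mthfd2 in germ cells lay between -0.15 and -0.03, with adjusted p of 0.367 to 0.877 in edgeR. In soma the 8 members other than Mtr lay between -0.24 (Mthfd1) and 0.01 (Shmt2), with adjusted p of 0.21 to 0.974. Of all 9 members, 8 had a negative value in germ cells and 8 in soma, with medians of -0.11 and -0.16, against -0.003 and -0.007 over all genes tested. For the 8 members other than Mtr, the interaction value lay between -0.24 and 0.19 and did not pass the test in edgeR.

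**Figure D4:**
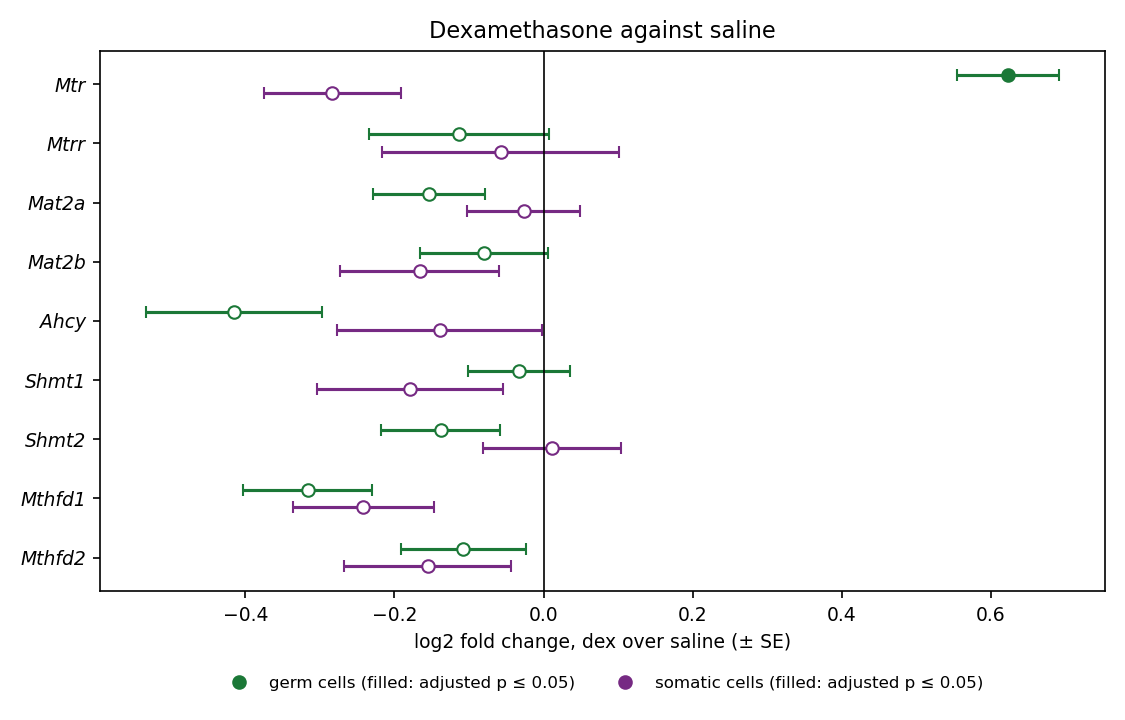
log2 fold change of dex over saline (± SE, 3 libraries against 3) for the 9 genes in germ cells and in soma, with a filled point where the adjusted p of edgeR was at or under 0.05. Mtr in germ cells (0.62) carries the filled point, Mtr in soma sits at -0.28, and the other genes lie between -0.42 and 0.01.

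The members' neighbours in the pathway were followed in 7 lists that hold 61 further genes of the table. In germ cells against soma with saline, 17 of the 58 tested were higher in germ cells, 25 were lower and 16 did not pass the test. Of all genes tested, 39.8% were called higher and 36.7% lower. The counts of the single lists below stand against the same shares, and counts this small say little about a list. The median of all 58 was -0.11 on the log2 scale, against 0.072 over all genes tested. With dex the counts were 17 higher and 25 lower of 59 tested, against 40.5% and 35.7% of all genes.

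In the serine and glycine list, 5 of 7 genes were higher in germ cells and 2 lower with saline. Gldc, the decarboxylase of the mitochondrial glycine cleavage system, was at 94.5 to 97.1 CPM in saline germ and at 0.51 to 1.07 CPM in saline soma libraries. Psph, which completes serine synthesis, was 1.45 higher on the log2 scale, Phgdh, which opens it, was 0.56 higher, and Psat1 between them was 0.51 higher. Amt and Dld, which act with Gldc, were lower in germ cells, by -1.26 and -0.77.

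Folate interconversion had 3 genes higher and 6 lower in germ cells of 15 with saline. Atic, which uses formyl folate in purine synthesis, was 1.21 higher (log2). Tyms, thymidylate synthase, was lower by -0.84, and Mthfd2l, a mitochondrial paralogue of Mthfd2, was lower by -3.06. Mthfd1l (-0.06) did not pass the test, with an adjusted p of 0.652 in edgeR. Among transporters, 2 of 6 tested were higher, including the mitochondrial folate carrier Slc25a32 (0.90), and 4 were lower, including the folate receptor Folr1 (-4.40) and the sideroflexins Sfxn1 (-1.56) and Sfxn3 (-4.19), of which Sfxn1 is known to import serine into mitochondria.

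In the methionine cycle and betaine list, 5 of 10 tested were higher and 2 lower in germ cells. Mat1a, the liver form of the SAM synthetase, was at 4.53 to 5.69 CPM in saline germ libraries and at 0 to 0.26 CPM in saline soma libraries. Bhmt2, which can methylate homocysteine without folate, was at 0.78 to 1.71 CPM in saline germ libraries and at 0 counts in all soma libraries. Its saline germ mean of 1.35 CPM was 9.14-fold the limit of 3 counts that a count of 0 allows in saline soma. That limit, 0.148 CPM, was taken from library totals without TMM factors, so the ratio is approximate and not a strict lower bound. Bhmt, the paralogue of Bhmt2, had at most 3 counts in a saline germ library and was not tested there. Mettl16, an RNA methyltransferase known to act on Mat2a transcripts, was 0.99 higher, Ahcyl2 0.92 higher and Slc25a26, which carries SAM into mitochondria, 1.07 higher on the log2 scale, while Ahcyl1 was lower by -0.40 and Sardh, a sarcosine dehydrogenase, by -6.15. With dex Dmgdh was also called, at 0.51 to 1.24 CPM in germ and 0 to 0.25 CPM in soma libraries, a call that was lost without dex germ replicate 1 (adjusted p of 0.0588 in edgeR).

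In transsulfuration, Cth was higher in germ cells (1.36) and Cbs lower (-1.11), and Cbs no longer passed the test without saline germ replicate 2 or saline soma replicate 2 (adjusted p of 0.0507 and 0.0759 in edgeR). In methionine salvage and polyamine synthesis, 0 of 9 genes were higher and 6 were lower, with Mtap at -1.07, Srm at -1.56 and Odc1 at -0.97. In cobalamin handling, 1 of 9 was higher (Tcn2, 0.37) and 4 were lower, of which methylmalonyl-CoA mutase, listed as Mut, had the widest difference (-2.88).

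In the dex comparisons 1 of 59 pathway genes tested was called higher in germ cells and 0 lower, against 0.739% and 0.507% of all genes, and in soma 1 of 58 was called higher and 1 lower, against 2.74% and 1.17%. Counts this small do not set the pathway apart from that background. The gene called in germ cells was Tcn2, which encodes transcobalamin, the plasma protein that delivers cobalamin to cells. It was at 42.9, 47.3 and 47.2 CPM in saline germ and at 76.0, 68.1 and 63.2 CPM in dex germ libraries, a log2 difference of 0.59 ± 0.098 with an adjusted p of 0.00973 in edgeR. In soma it was at 32.7, 34.0 and 39.2 CPM with saline and at 46.7, 44.5 and 50.5 CPM with dex, a log2 difference of 0.45 ± 0.12 with an adjusted p of 0.0471. Dex libraries lay above saline libraries in both populations, and the difference between the 2 effects, 0.17 ± 0.15, did not pass the test (adjusted p of 0.698 in edgeR). Tcn2 was no longer called in germ cells without saline germ replicate 1 (0.0809), and in soma it was no longer called when any library other than saline soma replicate 3 was left out, with adjusted p of 0.0789 to 0.177.

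Odc1, the ornithine decarboxylase that opens polyamine synthesis, fell in soma, from 230, 216 and 223 CPM with saline to 175, 166 and 169 CPM with dex, a log2 difference of -0.37 ± 0.077 with an adjusted p of 0.0126 in edgeR. In germ cells its libraries overlapped, at 107 to 120 CPM with saline and 104 to 125 CPM with dex. The soma call was lost without dex soma replicate 2 or 3 or saline soma replicate 1 or 3 (adjusted p of 0.0574 to 0.0883 in edgeR). The exons of Odc1 share 19.8% of their 64-base words with 14 other genes, of which Gm7993 had 38.3% of its counts. In the interaction 0 of 61 genes were called in edgeR, with 5 at an unadjusted p under 0.05, and DESeq2 called 1, Odc1.

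Other genes that handle cobalamin, the cofactor of methionine synthase, did not pass the test for dex. Mmachc, Mmadhc, Mmaa, Mmab and Mut, of the cobalamin handling list, had positive values in germ cells of 0.05 to 0.43 (log2). Their adjusted p was 0.155 to 0.913 in edgeR. All 9 genes of that list were above 0 there, with a median of 0.090. In soma 6 of the 9 were above 0.

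**Figure D5:**
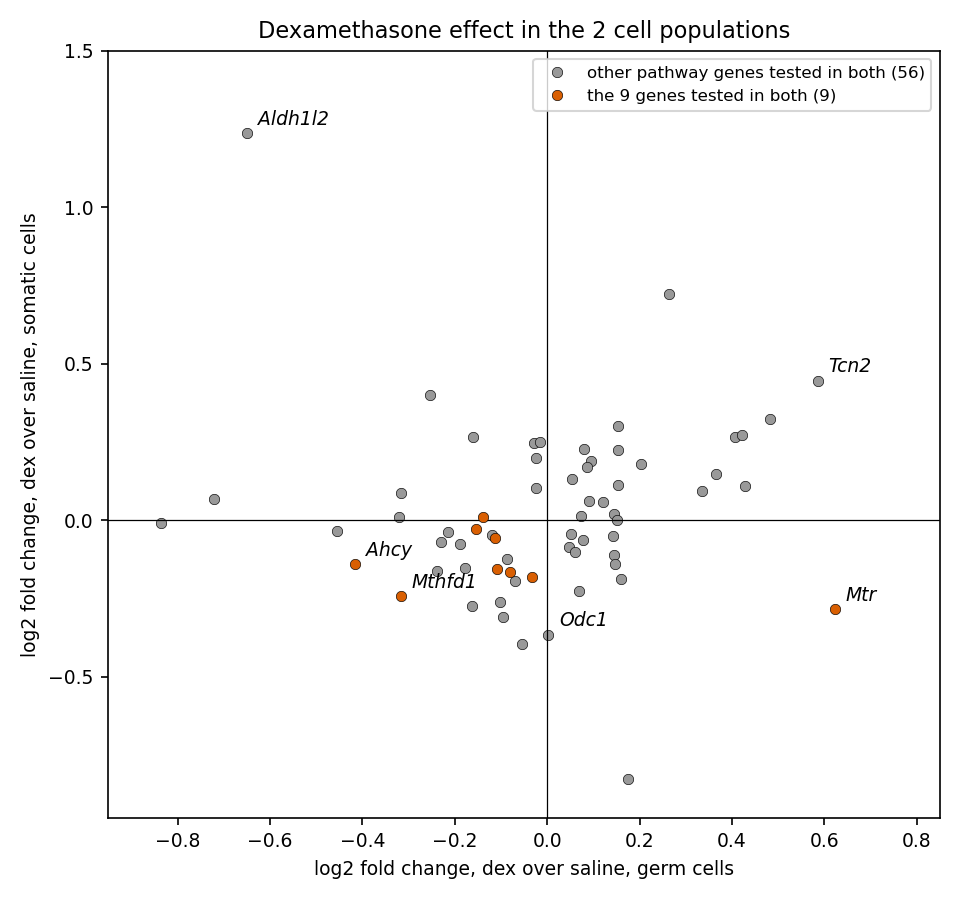
log2 fold change of dex over saline in germ cells (horizontal) against soma (vertical) for the 9 genes and for the 56 other pathway genes tested in both populations. Mtr stands alone at the lower right (0.62 and -0.28), Tcn2 lies at the upper right (0.59 and 0.45), and Odc1 lies on the vertical axis below 0 (0.003 and -0.37). Aldh1l2, labelled at the upper left, was not called in either population.

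Among 14 genes listed for SAM-dependent methylation, Dnmt3l included, 2 of 13 tested fell in dex germ cells and 0 rose. Of all genes, 0.507% were called lower and 0.739% higher. Dnmt1, the maintenance DNA methyltransferase, went from 819 to 871 CPM in saline germ libraries to 673 to 735 CPM in dex germ libraries, a log2 difference of -0.28 ± 0.063 with an adjusted p of 0.0436 in edgeR. Dnmt3b, a de novo DNA methyltransferase, went from 119 to 139 CPM to 97.4 to 101 CPM, a difference of -0.35 ± 0.080 with an adjusted p of 0.0495. Both calls were lost when any 1 library was left out, with adjusted p of 0.0557 to 0.208 for Dnmt1 and 0.0571 to 0.254 for Dnmt3b. In soma 0 of 12 methyltransferases passed the test in edgeR, with 1 at an unadjusted p under 0.05 and the smallest adjusted p at 0.155.

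Of 10 mitosis genes, 1 was called lower with dex in germ cells and 2 in soma, where 0.507% and 1.17% of all genes were called lower. All 10 had negative values in both populations. In edgeR 7 in germ cells and 9 in soma had an unadjusted p under 0.05, against 2736 of 18550 and 2701 of 16766 genes tested. Dex libraries lay below saline libraries for 6 and 9 of the 10, where 20.0% and 21.3% of genes were apart in either direction. Of 12 DNA replication genes, 0 were called in either population, with 4 and 2 at an unadjusted p under 0.05 in edgeR. The 10 mitosis genes summed to 2244 to 2407 CPM in saline germ and 1793 to 2177 CPM in dex germ libraries, and to 1523 to 1613 CPM in saline soma and 1210 to 1301 CPM in dex soma libraries. The DNA replication genes had overlapping sums, of 3344 to 3593 CPM in saline germ and 2962 to 3440 CPM in dex germ libraries, and of 1723 to 1969 CPM in saline soma and 1617 to 1749 CPM in dex soma libraries. Mki67 was called in germ cells, at -0.44 ± 0.10 with an adjusted p of 0.0483, and Top2a (-0.30 ± 0.076, 0.0366) and Ccna2 (-0.35 ± 0.086, 0.031) were called in soma. Mki67 was no longer called without dex germ replicate 1 or 2 or saline germ replicate 1 or 2 (0.062 to 0.21 in edgeR), Ccna2 without any 1 of the 6 libraries (0.0643 to 0.14), and Top2a without any 1 other than dex soma replicate 2 (0.0522 to 0.14). Peritubular and stromal markers summed to 4702 to 6182 CPM in saline soma and 7806 to 8939 CPM in dex soma libraries, and macrophage markers to 46.9 to 85.6 and 19.8 to 27.5 CPM. The part of these shifts in the members' soma values was not tested.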

How the data were processed

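Gene expression was taken from the count and FPKM tables of 12 libraries, grouped by their labels. Per the authors' methods, reads were aligned to mm10 with HISAT2 2.0.5 and counted with featureCounts 1.5.0-p3; the deposited counts are raw, and the authors derived the deposited FPKM from counts, gene length and depth. Annotation release and strand setting are not given in the sources used here; 99.93% of gene IDs were found in GENCODE M21. The deposited tables of the authors' own dex comparisons (fold changes and p-values) were not used. The 9 genes and all lists were chosen with earlier results of these data known.

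Counts were tested with edgeR 4.0.16 (R 4.3.3; quasi-likelihood, TMM, filterByExpr at a minimum count of 10), with the 6 libraries of a comparison, or all 12 for the interaction, and two-sided Benjamini-Hochberg adjusted p over all genes; a gene is called at or under 0.05. SE is the log2 fold change over the square root of F. The test was checked on simulated data with few changed genes and the same spread for every gene. That setting is unlike germ against soma, where most genes were called. CPM used TMM factors of all 12 libraries. The p-values measure the spread between pools of litters. A count of 0 allows up to 3 counts (0.119 to 0.163 CPM by library totals, without TMM factors), for counting error only. Alternatives were DESeq2 1.42.0, library totals, DESeq2 size factors, no filter, a replicate block, all 12 libraries in 1 fit and each library left out; the sum of Ahcy with its copies was added after seeing the data.

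All 9 genes were named. Of the pathway lists, every called gene was named where a comparison called at most 12, otherwise the 4 largest rises and 4 largest falls, and 18 genes were to be named whatever their values, of which some are not reported here. Genes named beyond this rule (Amt, Dld, Atic, Sfxn1, Slc25a26, Srm, Odc1 and Tcn2 in the cell comparison, Mut and the other cobalamin genes, Aldh1l2, and the genes named of the ATF4 pathway) were chosen after their values were seen. Shared 64-base words were counted over GENCODE M21 exons.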

Additional observations from a re-analysis of the deposited data

Results flagged for a closer look

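The dex effect on Mtr differed between germ cells and soma by 0.94 on the log2 scale in the interaction test of edgeR (adjusted p of 0.000898). Mtr was above saline in 3 of 3 dex germ libraries and below saline in 3 of 3 dex soma libraries. The soma difference did not pass the test (adjusted p of 0.114 in edgeR). Libraries were apart, in either direction, for 20.0% of genes tested in germ cells and 21.3% in soma. Groups of 3 libraries are too small for a check of single outlying samples.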

How the results depend on the processing

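Both calls of Mtr and the 8 members called between germ cells and soma kept their direction and call in each alternative tried. Counts of calls varied more. With dex against saline in germ cells, 231 genes were called, against 711 in DESeq2, 767 without the filter, 65 with the replicate block, 142 with all 12 libraries in 1 fit and 49 to 265 without 1 library (49 without saline germ replicate 1). In soma 655 became 976 in DESeq2, 1061 without the filter and 354 to 547 without 1 library. In the interaction 170 became 648 in DESeq2, 706 without the filter, 104 with the block and 79 to 172 without 1 library. Of pathway genes, 1 called in germ cells became 4 in DESeq2, 4 without the filter, 0 with the block (Tcn2, adjusted p of 0.0532) and 0 to 2 without 1 library, 2 in soma became 1 with library totals and 0 to 1 without 1 library, and 0 in the interaction became 1 in DESeq2 and 0 to 1 without 1 library. Scaling by library totals moved the share of calls that were higher from 59.3% to 69.3% in germ cells, from 70.1% to 53.5% in soma and from 50% to 67.0% in the interaction, and the median of all genes in germ over soma from 0.072 to 0.21 (saline) and from 0.12 to 0.30 (dex). The causes were not tested.

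Signs changed for values near 0. Ahcy in germ over soma with dex (-0.01) was 0.0947 in DESeq2, 0.181 with library totals, 0.095 with DESeq2 size factors, 0.0696 without the filter, 0.0178 with the block, 0.125 when summed with its copies and -0.171 to 0.162 without 1 library. Mthfd1l with saline was 0.0378 in DESeq2, 0.0786 with library totals and 0.0377 with size factors. Without 1 library, Psat1 ranged from -0.0192 to 0.232 with dex. In soma, dex over saline without 1 library ranged from -0.203 to 0.059 for Mtrr, from -0.0538 to 0.0112 for Mat2a, from -0.306 to 0.0245 for Ahcy (0.0278 when summed) and from -0.0353 to 0.0918 for Shmt2, which was -0.0487 with library totals and -0.0164 with all 12 libraries. In the interaction, Mtrr was 0.0286 with library totals and -0.142 to 0.11 without 1 library, and Mthfd1 was 0.00687 and -0.116 to 0.0353. Ahcy was called in germ over soma with saline in DESeq2 (0.0314), with library totals (0.0315), without the filter (0.0117) and with the block (0.0202), and in dex germ cells in DESeq2 (0.0267) and without the filter (0.000134).

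Labels do not say whether same-numbered libraries share litters, and replicate numbers were not taken as pairs. The rule asked for all 3 correlations of the same-numbered libraries' deviations to be over 0.1, a chosen cutoff. No pair of groups compared met it, with r of 0.0845 to 0.149 between saline germ and saline soma, all above 0. The values were -0.0279 to 0.00603 between dex germ and dex soma, and -0.205 to 0.121 between saline germ and dex germ. These values do not settle whether litters were shared. Germ and soma libraries may be linked, which the main fits ignore. With the block, calls were also lost for Dmgdh in germ over soma with dex (adjusted p of 0.0509 in edgeR) and, in dex germ cells, for Dnmt1 (0.126), Dnmt3b (0.119) and Mki67 (0.123). Calls were lost with all 12 libraries in 1 fit for Dnmt1 (0.0895), Dnmt3b (0.237) and Mki67 (0.063), with library totals for Dnmt1 (0.0511), Dnmt3b (0.0717) and Tcn2 in soma (0.0906), and with DESeq2 size factors for Dnmt3b (0.0525) and Mki67 (0.0501). Groups of 3 libraries limit the precision of every value here.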

Other observations

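The split of reads between Ahcy and its near-identical copies differed between libraries of a group. Ahcy took 57.8%, 65.2% and 82.2% of the sum of Ahcy, Gm4737, Gm5638 and Gm9826 in saline germ libraries 1 to 3, and 68%, 73.5% and 81.8% in saline soma libraries 1 to 3. In dex libraries 1 to 3 it took 64.7%, 66.9% and 52.2% in germ cells and 71.7%, 72.4% and 54.5% in soma. Replicate 3 thus held the highest share in both saline groups and the lowest in both dex groups. This was noticed in the data and was not tested.

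Among 10 genes of the ATF4 pathway, the amino acid stress response that is known to induce Mthfd2, Shmt2 and the serine enzymes, 4 were higher and 6 lower in germ cells than in soma with saline. Of all genes tested, 39.8% were called higher and 36.7% lower there. Atf4 itself was lower (-2.35 log2, with 82.4 ± 8.2 CPM in germ against 420.0 ± 33.3 CPM in soma, SD, n = 3). Asns (-1.23) and Ddit3 (-2.31) were also lower, whereas Sesn2 (1.85) and Trib3 (1.84) were higher. The widest rise of the 10 was that of Chac1 (5.60 ± 0.76, SE) and the widest fall that of Atf5 (-2.95 ± 0.15). Chac1 did not pass the filter on low counts within soma, and its germ over soma value was 9.10 ± 0.95 with dex, so its size is uncertain. In the dex comparisons 0 of 10 passed the test in edgeR in germ cells, with 0 at an unadjusted p under 0.05, and 0 of 9 passed in soma, with 1.

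The genes with the pattern most like each member, by the root mean square difference of centred log2 CPM over 12 libraries among 11982 genes, were Alms1 for Mtr (0.17), Ap5z1 for Mtrr (0.12), Luc7l3 for Mat2a (0.055), Rbm25 for Mat2b (0.070), Psmb5 for Ahcy (0.17), Zfp597 for Shmt1 (0.095), Pold1 for Shmt2 (0.060), Ss18 for Mthfd1 (0.085) and Arhgef7 for Mthfd2 (0.071). Alms1 had mean values of 144 CPM in saline germ and 169 CPM in dex germ libraries.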
